A study of Homo sapiens with 4 samples.

Results

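Aminoacyl-tRNA synthetases join each amino acid to its transfer RNA, the step that sets the meaning of the genetic code. Human cells keep separate enzymes for the cytosol and for the mitochondrion, encoded by different nuclear genes for most amino acids, while GARS1 (glycine) and KARS1 (lysine) each supply both compartments. Several cytosolic synthetases are held together with the scaffold protein AIMP1 in the multisynthetase complex, and many cytosolic synthetase genes are known targets of ATF4, the transcription factor of the amino acid stress response. The genes described here were chosen by symbol on the array annotation. The rule found 37 of the 22411 genes measured by a cluster of probes that carries their symbol alone, namely 18 cytosolic synthetase genes, GARS1 and KARS1, 16 mitochondrial synthetase genes and AIMP1. AIMP2 and EEF1E1 were not analysed here.

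The cells were HCT116, an established human colon cancer line, transfected by a lipid reagent with 50 nM of an siRNA against CDK8, the kinase of the Mediator kinase module, or with a control siRNA at the same dose. RNA was collected at 48 h, and there were 2 arrays, called biological replicates by the labels, for each siRNA. One CDK8 siRNA condition was used, so loss of CDK8 and other effects of that siRNA cannot be told apart. CDK8 itself had log2 signals of 7.25 and 7.45 with CDK8 siRNA, against 9.99 and 10.04 with control siRNA, a 6.34-fold lower level (limma adjusted p = 4.43e-05). Of the epithelial markers 6 of 7 lay above the filter level of 4.28 (log2), against 1 of 5 fibroblast, 0 of 4 blood cell and 0 of 3 endothelial markers. The summed log2 signal of the epithelial markers was 74.8 and 73.61 with CDK8 siRNA and 69.43 and 69.28 with control siRNA, and that of the fibroblast markers 20.15 and 19.98 against 19.03 and 18.97. Blood cell markers summed to 14.48 and 15.01 against 14.3 and 14.34, and endothelial markers to 10.62 and 10.87 against 10.5 and 10.62. The part of these markers in the results was not tested.

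Synthetase messages were lower more often than higher after CDK8 siRNA. Of the 37 genes 18 fell (48.65%), 5 rose (13.51%) and 14 did not pass, by limma at a Benjamini-Hochberg adjusted p of 0.05 across 13956 tested genes. Among all genes tested 49.5% were called, 26.4% as lower and 23.1% as higher. The median log2 difference of CDK8 siRNA minus control siRNA was -0.205 for the 37 genes and 0.005 for all genes tested. The signals of the 2 groups did not overlap in 28 of the 37, or about the share of all genes in which they did not overlap (74.7%). All 37 passed the filter on low signal, with mean log2 signals between 5.16 (VARS2) and 15.04 (NARS1), and none of the 4 arrays had to be left out. In such bulk RNA fewer cells of a kind and less RNA per cell cannot be told apart. The calls thinned out when 1 array was left out, to 16 and 15 members when CDK8 siRNA replicate 1 and 2 were dropped in turn, and to 9 and 12 for control siRNA replicate 1 and 2. The calls of 7 genes held in each of these 4 cases, namely AARS1, QARS1, EPRS1, NARS2, IARS2, FARS2 and WARS2.

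**Figure D1:**
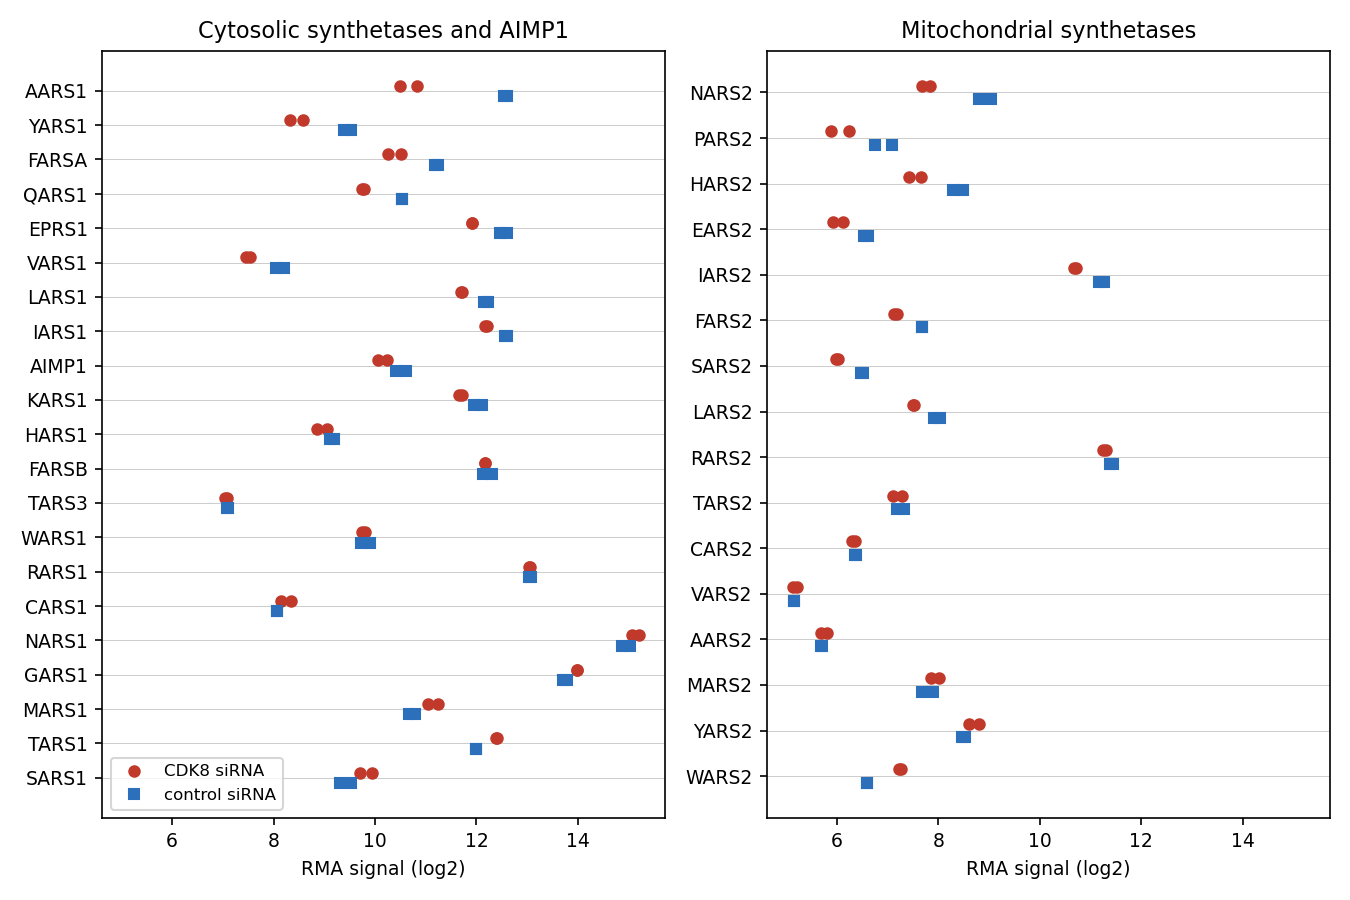
RMA signal (log2, x axis) of each of the 37 genes on each array, with cytosolic synthetases and AIMP1 at left and mitochondrial synthetases at right; red circles are the 2 CDK8 siRNA arrays and blue squares the 2 control siRNA arrays. The 2 arrays of a group lie close together for most genes, and AARS1 shows the widest gap between groups, with 10.82 and 10.49 against 12.61 and 12.55.

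AARS1, which charges alanine tRNA in the cytosol and removes serine and glycine charged in error, had the largest change. Its log2 signals were 10.82 and 10.49 with CDK8 siRNA, against 12.61 and 12.55 with control siRNA. Both CDK8 siRNA arrays lay far below both control arrays, a 3.80-fold fall (log2 difference -1.925 ± 0.12, SE, n = 2 per group; adjusted p = 1.68e-04). With 1 array left out the difference stayed between -2.09 and -1.76, with adjusted p up to 0.0308. NARS2, the mitochondrial enzyme for asparagine, came next. It had 7.83 and 7.67 with CDK8 siRNA, against 9.04 and 8.81 with control siRNA, with no overlap. That is a 2.26-fold fall (-1.175 ± 0.11, adjusted p = 5.23e-04), which was also called with any 1 array left out.

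YARS1, the cytosolic tyrosine enzyme, fell to 8.59 and 8.33 with CDK8 siRNA, against 9.53 and 9.39 with control siRNA. The groups were apart by more than either group's spread, and the fall was 2.00-fold (-1.0 ± 0.11, adjusted p = 0.00104). It did not pass without control siRNA replicate 1 (adjusted p = 0.0521). PARS2, the mitochondrial proline enzyme, had 6.24 and 5.89 with CDK8 siRNA, against 7.09 and 6.76 with control siRNA. Its replicates were the most scattered of the fallen genes described here, with replicate 1 the higher array in both groups. The 1.82-fold fall (-0.860 ± 0.16, adjusted p = 0.00668) did not pass with any array left out, where the difference lay between -1.035 and -0.685. It did pass with the replicate number as a block (limma adjusted p = 0.00914).

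HARS2, the mitochondrial histidine enzyme, had 7.65 and 7.43 with CDK8 siRNA, against 8.49 and 8.28 with control siRNA. The groups did not overlap, and the level was 1.80-fold lower (-0.845 ± 0.11, adjusted p = 0.00205). Without CDK8 siRNA replicate 2 it did not pass (adjusted p = 0.0534), nor without control siRNA replicate 1 (adjusted p = 0.0597). FARSA encodes the catalytic subunit of the cytosolic phenylalanine enzyme, whose other subunit is FARSB. It had 10.52 and 10.26 with CDK8 siRNA, against 11.24 and 11.19 with control siRNA, a 1.77-fold fall (-0.825 ± 0.10, adjusted p = 0.00163). On removal of control siRNA replicate 1 or 2 it missed the threshold (adjusted p = 0.0638 or 0.0599). FARSB stood at -0.060 ± 0.09 (adjusted p = 0.611), so the 2 subunits of that enzyme had unequal log2 differences. The difference between them was not tested.

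Fewer genes rose. WARS2, the mitochondrial tryptophan enzyme, had 7.26 and 7.22 with CDK8 siRNA, against 6.59 and 6.59 with control siRNA. This 1.57-fold rise (0.650 ± 0.07, adjusted p = 8.76e-04) was the largest of the 37 genes, and the rise was called with any 1 array left out. SARS1, the cytosolic serine enzyme, rose to 9.95 and 9.71 with CDK8 siRNA, against 9.52 and 9.32 with control siRNA, or 1.33-fold (0.410 ± 0.12, adjusted p = 0.0303). The groups did not overlap, but SARS1 missed the threshold after removal of any array (adjusted p between 0.0793 and 0.234), when dim genes were kept in (0.0568) and with arrays centred on their medians (0.0565).

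TARS1 and MARS1, the cytosolic threonine and methionine enzymes, rose by similar amounts. TARS1 had 12.38 and 12.41 with CDK8 siRNA, against 11.99 and 11.99 with control siRNA, a 1.32-fold rise (0.405 ± 0.07, adjusted p = 0.00486). The replicates lay close together, yet without control siRNA replicate 1 or 2 the adjusted p was 0.0572 or 0.0582. MARS1 had 11.24 and 11.04 with CDK8 siRNA, against 10.79 and 10.68 with control siRNA, also 1.32-fold (0.405 ± 0.10, adjusted p = 0.0168). It passed without CDK8 siRNA replicate 2, but not without CDK8 siRNA replicate 1 (adjusted p = 0.0971) nor without control siRNA replicate 1 (0.107) or 2 (0.164). GARS1, which serves both compartments, had 13.98 and 13.98 with CDK8 siRNA, against 13.79 and 13.7 with control siRNA. Its 1.18-fold rise (0.235 ± 0.07, adjusted p = 0.0422) had the highest adjusted p of the called members. It was lost when any array was removed (adjusted p between 0.0928 and 0.168), without the filter (0.0535), with quantile normalization (0.0579), with centred arrays (0.121), with an intensity trend (0.0712) and with the replicate number as a block (0.0634).

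**Figure D2:**
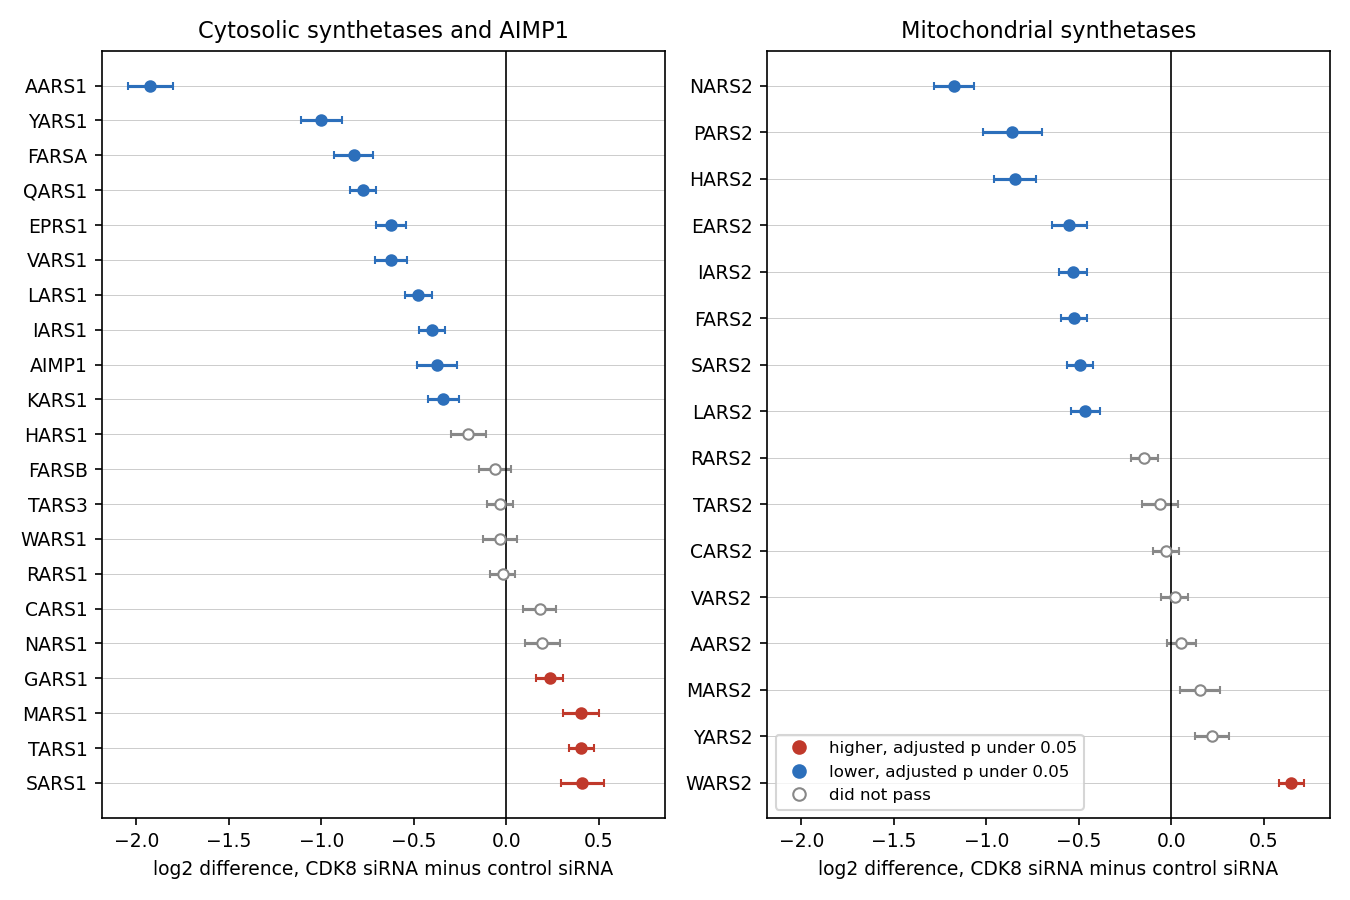
Log2 difference (x axis, CDK8 siRNA minus control siRNA) with its standard error from limma as bars (n = 2 arrays per group) for each gene, with cytosolic synthetases and AIMP1 at left and mitochondrial synthetases at right. Filled red points were called higher, filled blue points lower, and open grey points did not pass; 18 of the 37 are blue and 5 are red, and the range runs from -1.925 (AARS1) to 0.65 (WARS2).

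Both compartments held more falls than rises. Among the 20 cytosolic genes, GARS1 and KARS1 included, 9 fell (45%), 4 rose and 7 missed the threshold. Their median log2 difference was -0.1325. The 16 mitochondrial genes comprised 8 that fell (50%), 1 that rose and 7 others, at a median of -0.305. The share called was 65% of the cytosolic and 56.25% of the mitochondrial genes, against 49.5% of all genes tested. The fallen mitochondrial genes not yet described were EARS2 (glutamate, -0.550 ± 0.09, adjusted p = 0.00493), IARS2 (isoleucine, -0.530 ± 0.08, 0.00251), FARS2 (phenylalanine, -0.525 ± 0.07, 0.00212) and LARS2 (leucine, -0.465 ± 0.08, 0.00456). EARS2 did not pass without control siRNA replicate 1 or 2 (adjusted p = 0.0740 or 0.0935), and LARS2 did not pass without CDK8 siRNA replicate 1 or 2 (0.0544 or 0.0599) or without control siRNA replicate 1 (0.0572). With 1 array left out, between 4 and 6 of the mitochondrial genes were called lower, with the fewest on removal of control siRNA replicate 1 and 5 on removal of either second replicate. Between 4 and 8 of the cytosolic genes were called lower, 4 of them without control siRNA replicate 1. The cytosolic genes called higher numbered 1 on removal of CDK8 siRNA replicate 1, 2 on removal of CDK8 siRNA replicate 2 and 0 on removal of either control array. The difference between compartments was not tested.

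The multisynthetase complex gathers several synthetases, among them those of glutamate and proline, isoleucine, leucine, glutamine, methionine, lysine and arginine, around its scaffolds. Of its 8 measured genes 6 fell (75%, against 26.4% of all genes tested) and 1 rose (12.5%, against 23.1%), and the median log2 difference was -0.3875. QARS1, the glutamine enzyme, had 9.78 and 9.74 with CDK8 siRNA, against 10.53 and 10.54 with control siRNA, a 1.71-fold fall (-0.775 ± 0.07, adjusted p = 4.77e-04). EPRS1, a fused enzyme that charges both glutamate and proline tRNA, had 11.91 and 11.92 with CDK8 siRNA, against 12.47 and 12.61 with control siRNA. The fall was 1.54-fold (-0.625 ± 0.08, adjusted p = 0.00170), and both genes were called with any 1 array left out. LARS1, which also senses leucine for the growth kinase complex mTORC1, fell by 0.475 ± 0.07 (adjusted p = 0.00343), and on removal of control siRNA replicate 1 the difference was -0.43 and missed the threshold (adjusted p = 0.0516).

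IARS1, the isoleucine enzyme of the complex, fell by 0.400 ± 0.07 (adjusted p = 0.00552), but did not pass without control siRNA replicate 1 or 2 (0.0634 or 0.0546). KARS1 fell by 0.340 ± 0.08 (adjusted p = 0.0184) and AIMP1, the scaffold that is also secreted as a cytokine precursor, by 0.375 ± 0.11 (adjusted p = 0.0316). Neither gene passed once any array was removed, at adjusted p between 0.0594 and 0.1245 for KARS1 and between 0.0920 and 0.211 for AIMP1. AIMP1 also missed the threshold without the filter (0.0570) and with the replicate number as a block (0.117). MARS1 was the member of the complex that rose, and RARS1, the arginine enzyme, stood at -0.020 ± 0.07 (adjusted p = 0.839), with 13.05 and 13.03 against 13.08 and 13.04. Without control siRNA replicate 1 and 2 the complex genes called lower numbered 2 and 3, and those called higher numbered 0 in both cases, as they did when CDK8 siRNA replicate 1 was removed. Of the 13 measured cytosolic genes outside the complex 4 fell (30.77%) and 3 rose (23.08%), near the shares of all genes, and their median was -0.035. The difference from the complex was not tested.

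Synthetases belong to 2 unrelated folds, class I and class II, which in most but not all cases attach the amino acid to different hydroxyl groups of the tRNA end. Of the 18 class I genes 8 fell and 2 rose, with a median log2 difference of -0.09. Of the 17 class II genes 8 fell and 3 rose, with a median of -0.205. The share called in either direction was 55.56% in class I and 64.71% in class II, against 49.5% of all genes tested. EPRS1, which joins a domain of each class, was counted in neither.

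The cytosolic and mitochondrial gene of the same amino acid were set side by side by their calls. With 49.5% of all genes tested called, unlike calls would also be common between unrelated genes. Differences within these pairs were not tested. Across 17 pairs, which cover 16 amino acids and use EPRS1 and FARS2 2 times each, both genes fell in 5, namely glutamate, proline, isoleucine, leucine and phenylalanine with its FARSA subunit. Leucine was the closest match, at -0.475 for LARS1 and -0.465 for LARS2. In 3 pairs the cytosolic gene fell and the mitochondrial gene did not pass. These were alanine (AARS1 at -1.925, AARS2 at 0.055 ± 0.08), tyrosine (YARS1 at -1.0, YARS2 at 0.220 ± 0.09) and valine (VARS1 at -0.625, VARS2 at 0.020 ± 0.07). VARS1 lies in the major histocompatibility region. It has 7 transcript clusters, on the main chromosome 6 sequence and on alternative haplotypes, which gave log2 differences from -0.625 to -0.485. Its brightest cluster, used here, was called with adjusted p = 0.00221, and 0.0537 without CDK8 siRNA replicate 2.

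In 3 other pairs the mitochondrial gene fell and its cytosolic partner did not pass. For asparagine NARS2 stood at -1.175 and NARS1 at 0.195 ± 0.09 (adjusted p = 0.146), for histidine HARS2 at -0.845 and HARS1 at -0.205 ± 0.09 (adjusted p = 0.129), and for phenylalanine FARS2 at -0.525 and FARSB at -0.060. HARS1 passed as lower with quantile normalization (adjusted p = 0.0481). Serine was the pair with opposite calls. SARS2, the mitochondrial enzyme, had 6.03 and 5.98 with CDK8 siRNA, against 6.48 and 6.52 with control siRNA, a 1.41-fold fall (-0.495 ± 0.07, adjusted p = 0.00256), while SARS1 rose. SARS2 missed the threshold on removal of control siRNA replicate 2 (adjusted p = 0.0505), and SARS1 in the cases given above.

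Tryptophan ran the other way round, with WARS2 higher and WARS1, a gene known to respond to interferon gamma, at -0.035 ± 0.09 (adjusted p = 0.781). WARS1 had 9.81 and 9.75 with CDK8 siRNA, against 9.91 and 9.72 with control siRNA, and the groups overlapped. The cytosolic gene rose without a call for its partner for methionine (MARS2 at 0.155 ± 0.11) and threonine (TARS2 at -0.060 ± 0.10). TARS3, a further cytosolic threonine enzyme, stood at -0.035 ± 0.07. Neither gene passed for cysteine (CARS1 at 0.180 ± 0.09, CARS2 at -0.030 ± 0.07) or arginine (RARS2 at -0.145 ± 0.07). RARS2 passed as lower with quantile normalization (adjusted p = 0.0477) and with centred arrays (0.0487).

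**Figure D3:**
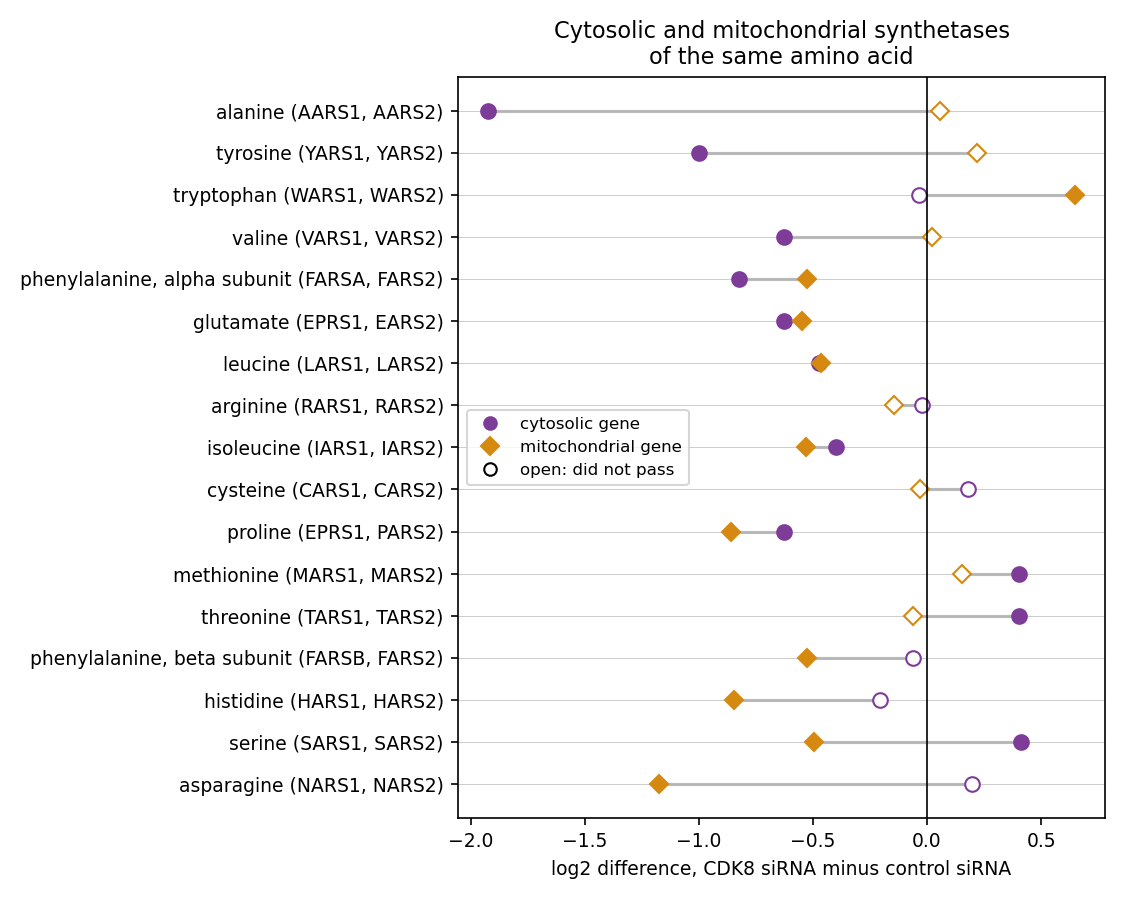
Log2 difference (x axis, CDK8 siRNA minus control siRNA) of the cytosolic gene (circles) and the mitochondrial gene (diamonds) of each amino acid, joined by a line and ordered by the cytosolic minus the mitochondrial value; open symbols did not pass. The gap is widest for alanine (AARS1 at -1.925, AARS2 at 0.055) and asparagine (NARS1 at 0.195, NARS2 at -1.175), and both symbols nearly coincide for leucine.

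Promoter sequence was read for 31 of the 37 genes from RefSeq windows on the build GRCh38.p14, which run from 250 bases before to 50 bases after each listed start, 42 windows in all. ATF4 pairs with C/EBP proteins on a composite site, the C/EBP-ATF response element, whose core letters were searched as TGATGNAA on both strands. They stand in 8 of the 31 genes (25.8%), against 4.46% of the 27305 genes with a window and 3.62% of all 35116 windows. The 27305 include genes not tested here, whereas all 31 were tested. The 8 stretches are printed because 3 of the 5 genes that rose hold the element, and so does AARS1, the gene that fell most. Each is given 5′ to 3′ on the strand that reads the element, with the matching letters in capitals.
AARS1, chr16:70289675-70289704, plus strand: tctaacttggcTGATGCAActgcgagaaaa
IARS1, chr9:92293692-92293721, plus strand: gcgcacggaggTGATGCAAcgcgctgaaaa
CARS1, chr11:3057407-3057436, plus strand: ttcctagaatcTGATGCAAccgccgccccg
NARS1, chr18:57621804-57621833, minus strand: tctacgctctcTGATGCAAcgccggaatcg
YARS2, chr12:32756076-32756105, minus strand: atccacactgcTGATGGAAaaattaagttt
GARS1, chr7:30594834-30594863, minus strand: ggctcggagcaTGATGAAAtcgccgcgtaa
MARS1, chr12:57488053-57488082, minus strand: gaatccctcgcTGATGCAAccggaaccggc
TARS1, chr5:33440956-33440985, minus strand: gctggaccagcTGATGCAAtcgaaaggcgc

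The genes with these letters were called in both directions. MARS1, TARS1 and GARS1 rose, AARS1 and IARS1 fell, and CARS1, NARS1 and YARS2 did not pass, although their differences of 0.180, 0.195 and 0.220 lay above 0. The median log2 difference was 0.2075 in the 8 genes, 6 of them above 0 with 3 of those not called, against -0.375 in the 23 genes without the letters, 3 of them above 0. Of those 23 genes 2 rose and 13 fell. Among all tested genes with a window, 279 held the letters, of which 32.6% rose and 26.5% fell, against 22.4% and 29.7% of the 9729 that did not. The match lay within 40 bases of a listed start in 6 of the 8 genes (75%), the exceptions being AARS1 and YARS2. Of the 1217 genes with a match, tested or not, the share was 24.1%. No test was made of these counts, and the element was chosen with the differences known.

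**Figure D4:**
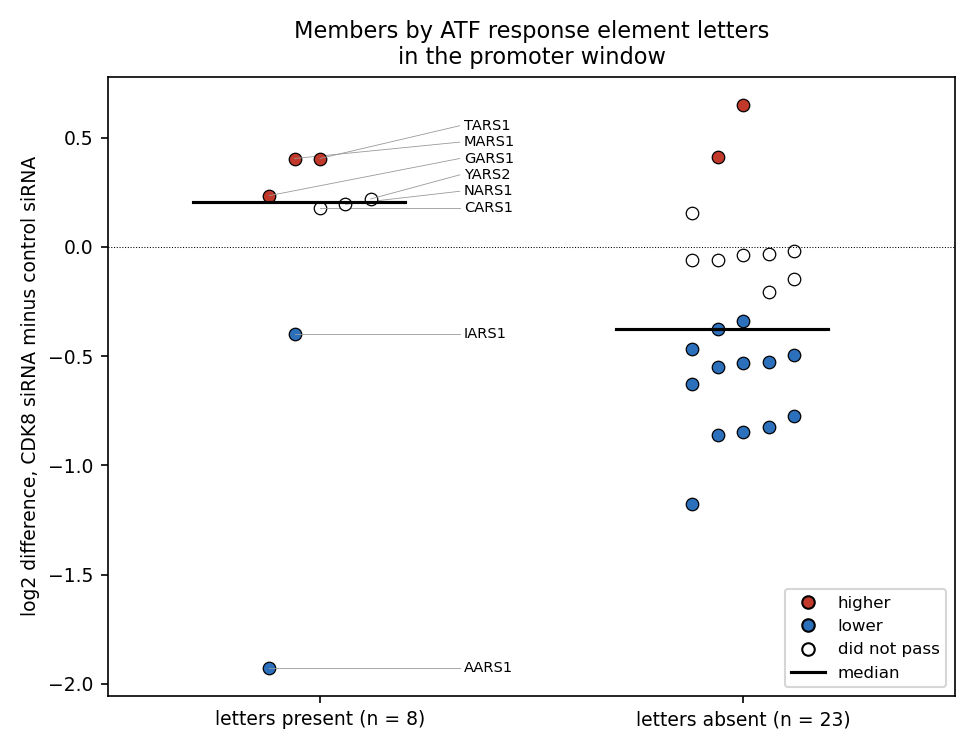
Log2 difference (y axis, CDK8 siRNA minus control siRNA) of the 8 genes with the response element letters in their promoter window (left, named) and of the 23 genes without them (right); red points were called higher, blue lower, white did not pass, and bars are medians. The medians are 0.2075 at left and -0.375 at right, and AARS1 lies far below the rest at left.

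In AARS1 the letters stand further upstream than in 6 of the others. Its 250 bases before the start are printed to show that position (chr16:70289507-70289756, minus strand, the strand of the gene), so that the element reads as its reverse complement, in capitals.
AARS1 promoter: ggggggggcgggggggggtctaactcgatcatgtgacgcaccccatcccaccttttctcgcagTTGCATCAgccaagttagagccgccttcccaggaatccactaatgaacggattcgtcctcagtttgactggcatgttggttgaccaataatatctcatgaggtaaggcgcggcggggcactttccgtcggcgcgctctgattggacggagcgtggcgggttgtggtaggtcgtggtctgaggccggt
The other 3 motifs were also searched on both strands. TGACGTCA, the cyclic AMP response element, stood in 0 of the 31 genes, against 2.25% of all genes with a window. CACGTG, the E-box of MYC, stood in 4 genes (12.9%, against 8.77%). CCGGAAG, the core of ETS sites, stood in 16 genes (51.6%, against 12.2%). The shares of all genes with a window include genes not tested here, whereas all 31 were tested. Among tested genes with a window 1219 held the E-box and 8789 did not, a share near that of the 31 genes. ETS letters stood in 2138 tested genes and not in 7870, a share above 12.2% and below 51.6%. Of the 16 genes with ETS letters 5 fell, 3 rose and 8 did not pass, with a median of -0.0325, against 10 that fell and 2 that rose of the 15 without them, with a median of -0.465. Over all tested genes with a window the order was the other way, since 32.0% of the 2138 holders of ETS letters fell, against 29.0% of the 7870 others, with medians of -0.05 and -0.015.

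Several synthetase genes share a promoter region with a neighbour that is read in the opposite direction. With starts at most 500 bases apart, 8 such head-to-head pairs of coding genes include a member of the family. In 6 of the 8 pairs a synthetase gene or AIMP1 fell. This counts pairs and not members, since HARS1 and HARS2 are both members. Of all 37 members 18 fell (48.65%), and of all genes tested 26.4% fell. Of the 6 fallen genes, KARS1, AIMP1, HARS2, EARS2 and SARS2 lost their call in at least 1 of the cases with an array removed. HARS1 and HARS2 face away from each other with 84 bases between their starts, yet HARS2 fell by 0.845 while HARS1 at -0.205 did not pass. KARS1 fell by 0.340, whereas TERF2IP, a telomere protein gene 107 bases away, rose 1.89-fold. TERF2IP had 8.64 and 8.37 with CDK8 siRNA, against 7.64 and 7.54 with control siRNA (0.915 ± 0.11, adjusted p = 0.00134). Removing control siRNA replicate 1 or 2 ended that call (0.0516 or 0.0606).

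SARS2 fell by 0.495, whereas MRPS12, a mitochondrial ribosomal protein gene 180 bases away, had 5.41 and 5.5 with CDK8 siRNA, against 5.25 and 4.96 with control siRNA. Its rise of 0.350 ± 0.11 (adjusted p = 0.0481) did not pass after removal of any array (adjusted p between 0.0543 and 0.274), without the filter (0.0833), with quantile normalization (0.07235), with centred arrays (0.0990) and with the replicate number as a block (0.127). AIMP1 and TBCK, a regulator of growth signalling, fell together. TBCK had 8.33 and 8.42 with CDK8 siRNA, against 9.42 and 9.35 with control siRNA, a 2.01-fold fall (-1.010 ± 0.08, adjusted p = 2.81e-04). EARS2 and FARS2 fell while UBFD1 (0.275 ± 0.11, adjusted p = 0.0898) and LYRM4 (0.000 ± 0.08) did not pass, although UBFD1 passed as higher with the replicate number as a block (0.0383). In the 2 remaining pairs, RARS2 with ORC3 and WARS1 with WDR25, neither gene passed. These neighbours were picked by position with the members' differences known, and differences within pairs were not tested.

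The regions between the starts are printed for the 2 pairs with opposite calls and for HARS1 with HARS2, to show how short the shared stretch is, on the strand of the synthetase named second, with ETS letters (CCGGAAG on either strand) in capitals. The MRPS12-SARS2 stretch holds no such letters, and the match counted for SARS2 lies in its promoter window outside that stretch.
HARS1-HARS2, chr5:140691371-140691454, plus strand: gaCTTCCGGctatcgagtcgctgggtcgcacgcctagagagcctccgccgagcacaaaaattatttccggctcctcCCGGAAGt
TERF2IP-KARS1, chr16:75647666-75647772, minus strand: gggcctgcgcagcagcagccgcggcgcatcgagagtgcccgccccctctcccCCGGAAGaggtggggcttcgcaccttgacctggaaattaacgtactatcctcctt
MRPS12-SARS2, chr19:38930764-38930943, minus strand: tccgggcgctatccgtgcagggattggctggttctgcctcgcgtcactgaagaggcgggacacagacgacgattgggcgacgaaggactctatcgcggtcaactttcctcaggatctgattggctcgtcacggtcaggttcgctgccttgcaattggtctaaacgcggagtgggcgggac

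**Figure D5:**
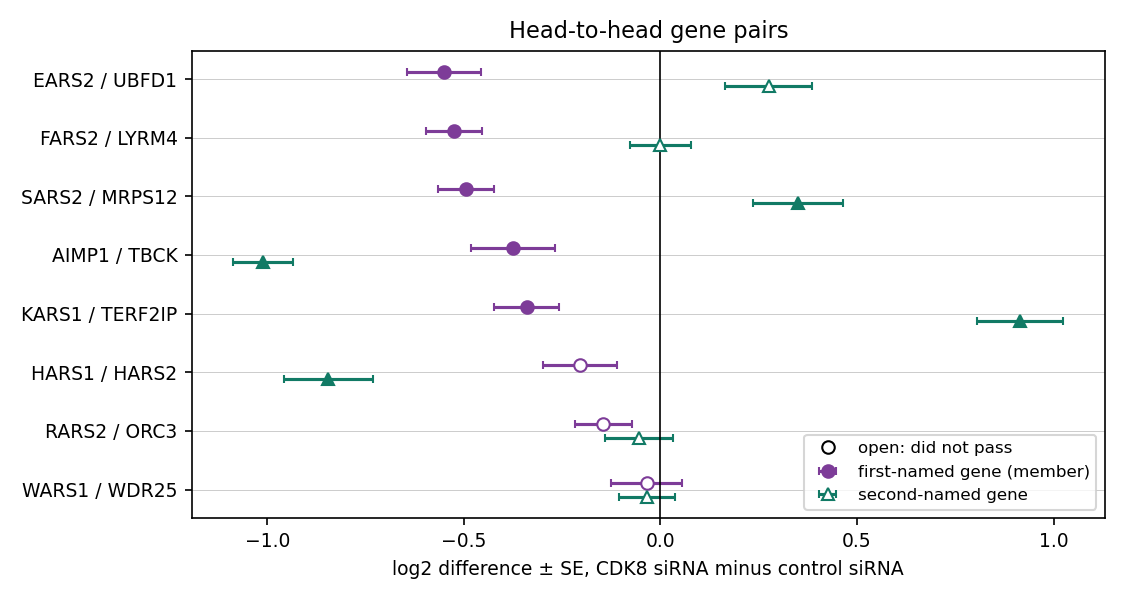
Log2 difference with its standard error (x axis, CDK8 siRNA minus control siRNA, n = 2 arrays per group) of the 8 head-to-head pairs, with circles for the first-named gene and triangles for the second; open symbols did not pass. The points of KARS1 and TERF2IP lie on opposite sides of 0, at -0.34 and 0.915, and those of AIMP1 and TBCK on the same side.

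Genes that act on tRNA before or after charging were called at about the rate of all genes. Of 34 measured partners, which mature, export, modify, amidate or deliver tRNA, 7 rose (20.59%, against 23.1% of all genes tested), 11 fell (32.35%, against 26.4%) and 16 did not pass. Their median log2 difference was -0.07. EEF1A2, an elongation factor that carries charged tRNA to the ribosome, fell 2.58-fold (-1.365 ± 0.07, adjusted p = 1.12e-04). It had 9.57 and 9.48 with CDK8 siRNA, against 10.89 and 10.89 with control siRNA. MTFMT, which formylates the initiator methionine tRNA of mitochondria, fell 2.25-fold (-1.170 ± 0.09, adjusted p = 3.115e-04). YRDC, which takes part in a modification next to the anticodon, rose 4.32-fold (2.110 ± 0.13, adjusted p = 1.70e-04), to 10.42 and 10.36 with CDK8 siRNA, against 8.47 and 8.09 with control siRNA. POP1, a subunit of the RNase P that trims tRNA precursors, rose by 0.790 ± 0.08 (adjusted p = 6.29e-04). With 1 array left out EEF1A2 stayed between -1.41 and -1.32 and MTFMT between -1.27 and -1.07. YRDC stayed between 1.92 and 2.3 and POP1 between 0.74 and 0.84. EEF1A1, a second and much brighter elongation factor gene of the list, did not pass (-0.040 ± 0.07, limma adjusted p = 0.670). It had 18.87 and 18.84 with CDK8 siRNA, against 18.89 and 18.9 with control siRNA, and was named with its values known. When 1 array was removed, rises in the list numbered 3 (CDK8 siRNA replicate 1), 4 (CDK8 siRNA replicate 2), 4 (control siRNA replicate 1) and 2 (control siRNA replicate 2). Removal of control siRNA replicate 1 or 2 left 6 or 7 falls.

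ATF4 targets outside the synthetases were mostly higher. Among the 26 tested genes of this list 16 rose (61.54%) and 3 fell (11.54%), at a median log2 difference of 0.395. The list includes ATF4 itself, which is counted among those that rose. Of all genes tested 23.1% rose and 26.4% fell, at a median of 0.005, and of the 20 cytosolic synthetases 4 rose and 9 fell. Of the 28 targets on the array the other two lay below the filter. SLC7A11, the cystine transporter, had 13.89 and 14.04 with CDK8 siRNA, against 10.87 and 10.72 with control siRNA, a rise of 3.17 ± 0.09 (adjusted p = 3.31e-05). The transcription factor gene ATF3 rose 6.94-fold (2.795 ± 0.14), the secreted factor gene STC2 2.99-fold (1.580 ± 0.10) and the mTORC1 inhibitor gene SESN2 2.45-fold (1.295 ± 0.08), with adjusted p of 8.91e-05, 1.55e-04 and 1.60e-04. ATF4 itself and XPOT, which exports tRNA from the nucleus, were named with their values known. ATF4 had 12.32 and 12.28 with CDK8 siRNA, against 12.04 and 11.92 with control siRNA (0.320 ± 0.08, adjusted p = 0.01825), a call that ended when any array was removed (adjusted p between 0.0637 and 0.113). XPOT, a member of both lists, rose by 0.530 ± 0.10 (adjusted p = 0.00810), but missed the threshold on removal of control siRNA replicate 1 or 2, where its difference was 0.495 or 0.565 (0.123 or 0.102). Without control siRNA replicate 2 the targets called higher numbered 9, and those called lower numbered 1 without either control array.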

How the data were processed

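The authors deposited log2 values. The submitters' processing notes name RMA and Affymetrix Expression Console, with no version given in the sources used here. RMA equalises arrays and compresses differences at low signal. The 4 arrays were grouped by sample titles, which call the replicates biological; what was repeated (culture, transfection or both) is not stated further, and p-values measure the spread between these arrays. The number of arrays limits the precision.

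The table held 70523 rows, of which 67528 were transcript clusters. The platform annotation gave 23781 of them 1 symbol, 1543 several and the other 42204 none used here. A RefSeq gene table (GRCh38.p14) served to update symbols, where 23777 matched and 306 changed. The 37 members had 43 clusters, and 6 clusters with several symbols were left out. The brightest cluster per gene was kept. Genes were tested where the mean of the 4 arrays reached 4.278, the median of all clusters, leaving 13956. The test was limma (3.58.1, under R 4.3.3), by lmFit and eBayes without covariates, with Benjamini-Hochberg adjustment. Figures used matplotlib 3.10.9. Simulated data with known changes were used to check the test.

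Every member is named. Values on each array are given for the 6 largest falls and up to 6 largest rises among called members, and for pairs with opposite calls. They are also given, picked with values seen, for QARS1, EPRS1, RARS1 and WARS1. From the lists of tRNA partners and ATF4 targets up to 4 genes by smallest p are named, with EEF1A1, ATF4 and XPOT added with values seen. The members, lists, motifs and neighbours were chosen with earlier results of these data known. The labels do not say what the shared replicate numbers pair, so the replicate number was not used as a block in the main comparison. Same-numbered arrays had deviations that correlated with r = 0.121 across genes, over 2 pairs, which cannot settle whether the arrays were paired. Alternatives were other filters, quantile normalization, centring, eBayes with a trend or robust settings, the mean of clusters, the replicate block, a threshold of 0.01 and leaving out each array, where a lone array is assumed to vary like the other group.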

Additional observations from a re-analysis of the deposited data

How the results depend on the processing

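No called member changed direction under any alternative run. Of the 23 called members, 23 kept their call under a stricter filter (75th percentile), with robust eBayes and with the mean of clusters, 22 with quantile normalization or an intensity trend, 21 with centred arrays or the replicate block, 20 without the filter and 18 at a threshold of 0.01. The replicate block gave 3 cytosolic genes higher and 9 lower, and changed no other call of a member than those of AIMP1 and GARS1. Cytosolic genes called higher numbered 2 without the filter or with centred arrays and 1 at a threshold of 0.01, where 0 genes of the complex were higher. The median log2 difference of mitochondrial genes was -0.48 with the 75th percentile filter, which dropped AARS2 and VARS2, and -0.38 with centred arrays. With 1 array left out, all genes called higher numbered 1377 to 2097 and lower 1745 to 2414, against 3229 and 3679 with 4 arrays; cytosolic genes 0 to 2 and 4 to 8, mitochondrial genes 1 to 1 and 4 to 6, and complex genes 0 to 1 and 2 to 4. These fits have fewer samples. The smallest absolute log2 difference called was 0.21. This is not a limit of detection, since what passes depends on the standard error of each gene. Larger differences, such as 0.22 for YARS2 and 0.275 for UBFD1, did not pass with 2 arrays a group. Without GARS1 and KARS1, an alternative added after the data were seen, 3 cytosolic genes were higher and 8 lower. CDK8 stayed between -2.765 and -2.565 with 1 array left out.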
